A study of Mus musculus with 12 samples.

Results

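The 10 circadian clock genes *Bmal1* (also named *Arntl*), *Clock*, *Per1*, *Per2*, *Per3*, *Cry1*, *Cry2*, *Nr1d1*, *Nr1d2* and *Dbp* were followed through the growth of a mouse leg muscle. They were chosen by symbol, each symbol was matched to a single identifier in the table of 55450 genes, and all 10 were among the 19276 genes with enough counts to be tested. The muscle was the tibialis anterior of wild-type mice on the 129Pas background by the labels (129SvPas in the study's methods), with no allele or treatment, taken at E18.5 (before birth), at 2 wks and at 7 wks (adult). Each age had 4 mice, and each of the 12 libraries was made from polyadenylated RNA of whole muscle. By the methods the mice were kept under a light/dark cycle, and the time of day at which the muscles were taken is not given in the sources used here. Levels of clock genes move with the time of day, so for every difference below age and time of sampling cannot be told apart.

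In mammalian cells the clock is a loop of transcription. BMAL1 and CLOCK bind DNA together at E-boxes and switch on the *Per*, *Cry*, *Nr1d* and *Dbp* genes. PER and CRY proteins then enter the nucleus and block BMAL1 and CLOCK, so that their own genes are shut off again. In a side loop the nuclear receptors NR1D1 and NR1D2 (REV-ERB alpha and beta) repress *Bmal1* at sites that ROR receptors activate, and DBP carries the rhythm to output genes through D-boxes. Skeletal muscle is known to hold such a clock, which in the adult is tied to fuel use and to *Myod1*.

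The letters of these sites were searched on both strands of RefSeq promoter windows on GRCm38.p6, from 250 bases before to 50 bases after a transcript start. Some genes have more than 1 such window, and those shown for *Per1*, *Per3* and *Bmal1* belong to starts inside the gene intervals given below. A window was at hand for 9 of the 10 genes, all but *Per2*. The sequences show where the known motifs stand in genes whose levels are given next, and a match is not evidence of binding in these muscles. The E-box CACGTG was found at *Per1* and *Cry1* and in 8.09% of the 27025 genes with a window. The D-box TTANGTAA was found at *Per3*, in 2 places, and in 2.72% of all genes, and the ROR element at *Bmal1* and in 2.86%. The ROR element was searched as GGTCA with an A, any 2 bases, a T and any base before it. Capitals mark the motif, and each sequence is written on the strand of its gene.
Per1 (chr11:69098774-69098797, plus strand, E-box from base -166 relative to that transcript start): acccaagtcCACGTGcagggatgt
Cry1 (chr10:85185100-85185123, minus strand, E-box from base -60): gccggtggtCACGTGgggtgcatg
Per3 (chr4:151044854-151044879, minus strand, D-box from base -205): acccgcgcgTTATGTAAggtactcgg
Per3 (chr4:151044807-151044832, minus strand, D-box from base -158): cgcccgcggTTATGTAAcccccgccg
Bmal1 (chr7:113207528-113207556, plus strand, ROR element from base 26 after the start): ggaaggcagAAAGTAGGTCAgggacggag

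The libraries held 63018968 to 123449246 counts, and no clock gene had fewer than 218 counts in any library. Counting error was therefore small beside the differences between mice. Levels are given as CPM, the counts of a gene relative to a library size scaled with TMM, which sets the bulk of genes level between libraries. The TMM factors differed with age, from 1.62 to 1.77 at E18.5, from 0.810 to 0.946 at 2 wks and from 0.667 to 0.699 at 7 wks, while the 20 most abundant genes took 13.75 to 16.1%, 33.2 to 35.6% and 36.4 to 37.8% of counts. Scaling to total counts in place of TMM lowered the median over all tested genes, on the log2 scale, by 0.93 (2 wks against E18.5), 0.35 (7 wks against 2 wks) and 1.28 (7 wks against E18.5). Calls that differ between these scalings are therefore given, and which of them is closer to RNA per cell was not tested. In whole muscle, fewer cells of a type and less RNA per cell cannot be told apart.

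From E18.5 to 2 wks, *Bmal1*, *Per1*, *Per3*, *Nr1d1*, *Nr1d2* and *Dbp* rose and none of the 10 genes fell. From 2 to 7 wks *Bmal1*, *Clock*, *Nr1d1* and *Nr1d2* rose and none fell. Over the whole span from E18.5 to 7 wks, 6 rose (*Bmal1*, *Per1*, *Per3*, *Nr1d1*, *Nr1d2* and *Dbp*) and *Per2* fell, while *Clock*, *Cry1* and *Cry2* did not pass the test. P-values are from the quasi-likelihood test of edgeR, adjusted over all tested genes (Benjamini-Hochberg), with a threshold of 0.05. Many genes changed with age in this muscle, and the same test called 31.5% of all genes higher and 34.2% lower from E18.5 to 2 wks. The shares were 13.5% and 13.9% from 2 to 7 wks, and 34.3% and 37.1% over the whole span. In the same order the median log2 fold change was 1.10, 0.51 and 1.32 over the clock genes, against -0.09, -0.03 and -0.09 over all tested genes.

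With scaling to total counts, the clock genes split into 3 higher and 4 lower at 2 wks against E18.5, 2 higher and 2 lower at 7 wks against 2 wks, and 4 higher and 4 lower over the whole span. The share of all genes called higher was then 13.2%, 4.92% and 11.9%, and the share called lower was 61.9%, 28.0% and 69.0%. *Nr1d1* rose in both intervals under either scaling. The median over the clock genes under total counts was 0.18, 0.16 and 0.04, against -1.02, -0.38 and -1.37 over all tested genes.

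**Figure D1:**
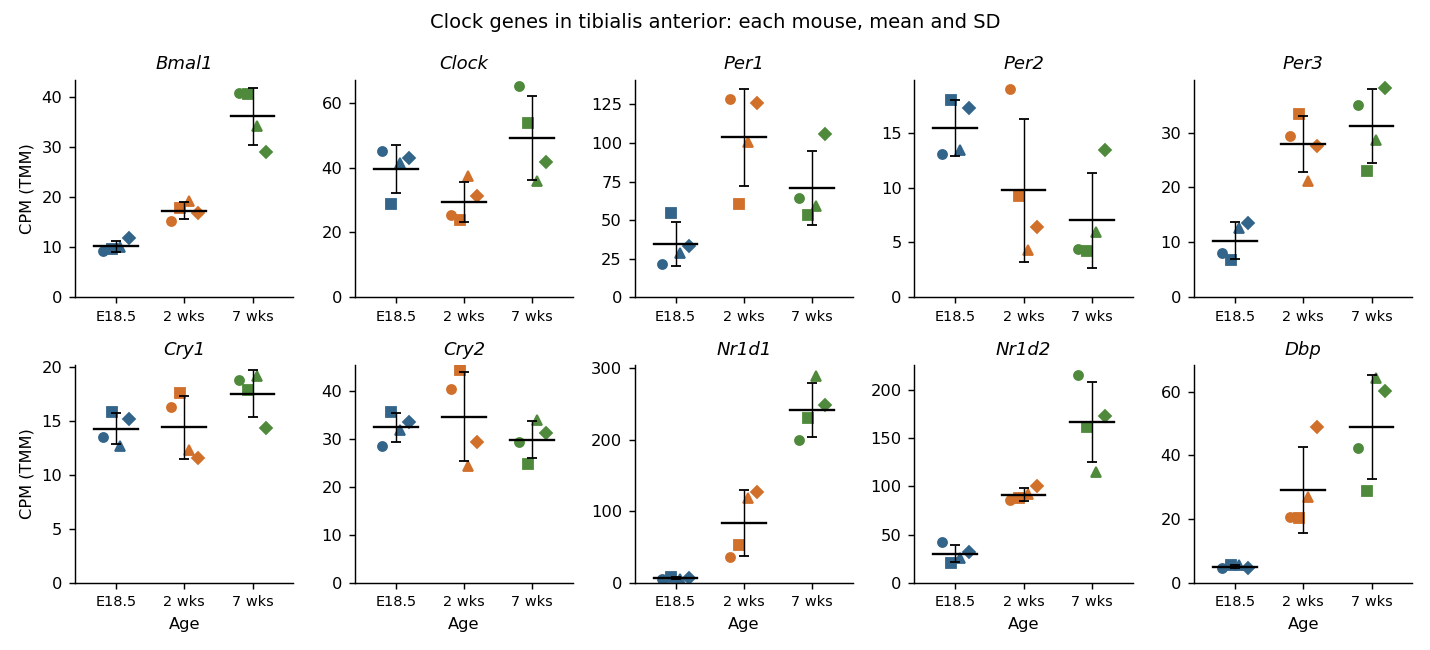
Level of each clock gene (CPM, TMM scaled, linear axes from 0) at E18.5, 2 wks and 7 wks. Each marker is 1 mouse, with a marker shape for each replicate number, and the line and bars give the mean and SD of 4 mice; *Nr1d1* climbs from a mean of 6.26 to 242 while the *Cry1* means stay between 14.3 and 17.5.

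*Bmal1* (chr7:113178471-113314126 on GRCm38.p6), the activator whose loss stops the clock, rose in each interval. Its CPM was 9.27, 9.61, 10.05 and 11.7 in the E18.5 libraries, 15.3, 17.7, 19.2 and 16.8 at 2 wks, and 40.8, 40.5, 34.1 and 28.9 at 7 wks. No level of an earlier age reached the lowest of a later age. The log2 fold change was 0.76 (SE 0.15, adjusted p = 0.000442) to 2 wks and 1.06 (SE 0.15, adjusted p = 0.00025) from 2 to 7 wks, but the rise to 2 wks turned to a log2 fold change of -0.17 (adjusted p = 0.328) with scaling to total counts. From 2 to 7 wks it was 0.72 (adjusted p = 0.0034) with that scaling.

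*Clock* (chr5:76209868-76305603), the DNA-binding partner of BMAL1, followed another course. Its CPM was 45.1, 28.7, 41.4 and 43.2 at E18.5, 25.3, 24.0, 37.5 and 31.2 at 2 wks, and 65.2, 53.8, 35.9 and 41.9 at 7 wks, with overlap between neighbouring ages. The log2 fold change to 2 wks was -0.43 (SE 0.21) and missed the threshold (adjusted p = 0.0902), but it passed at -1.37 with scaling to total counts (adjusted p = 3.69e-05). It also passed with upper-quartile scaling (-0.57, adjusted p = 0.0261), with a minimum of 10 counts per library, and without replicate 2 of E18.5 or replicate 3 of 2 wks (-0.55 in each), and with the GC trend removed it was 0.0035 (adjusted p = 0.985). *Clock* rose from 2 to 7 wks by 0.74 on the log2 scale (SE 0.21, adjusted p = 0.0198), a call that was lost with scaling to total counts (0.41, adjusted p = 0.142). It was also lost without replicate 1 or 2 of the 2 wks mice, or without replicate 1 or 2 of the 7 wks mice, with log2 fold changes down to 0.57. Of the exon bases of *Clock*, 11.9% overlap *Tmem165* on the other strand.

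The 3 *Per* genes, the repressors whose proteins close the loop, did not move together. *Per1* (chr11:69095108-69109965), which also answers quickly to glucocorticoids and other stimuli, had a CPM of 21.7, 54.4, 28.4 and 33.1 at E18.5 and 128 (replicate 1), 60.1, 100.4 and 126 at 2 wks. At 7 wks its CPM was 64.4, 53.3, 59.1 and 106. The E18.5 and 2 wks levels of *Per1* did not overlap, whereas those of 7 wks overlapped both. It rose to 2 wks by 1.59 on the log2 scale (SE 0.31, adjusted p = 0.000535), and the later log2 fold change was -0.55 (SE 0.31, adjusted p = 0.198). Under total counts the value to 2 wks was 0.66 and no longer passed (adjusted p = 0.0621), while the later value was -0.89 and passed (adjusted p = 0.0367). Over the whole span *Per1* was higher by 1.04 (adjusted p = 0.00794), but at -0.24 (adjusted p = 0.481) with scaling to total counts and at 0.34 (adjusted p = 0.204) with the GC trend removed. Without replicates 3 and 4 of E18.5, whose adipocyte markers were high (values below), the whole-span call of *Per1* was lost (0.89, adjusted p = 0.0678).

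*Per2* (chr1:91415977-91459351) had its highest mean before birth, though the highest single level was that of a 2 wks mouse. Its CPM was 13.1, 18, 13.5 and 17.3 at E18.5, 19.1, 9.24, 4.30 and 6.43 at 2 wks, and 4.37, 4.26, 5.99 and 13.5 at 7 wks. At each postnatal age 1 mouse stood above the others, replicate 1 at 2 wks and replicate 4 at 7 wks. *Per2* fell over the whole span by 1.14 on the log2 scale (SE 0.43, adjusted p = 0.0294), while the separate intervals, at -0.67 and -0.47, did not pass (adjusted p = 0.183 and 0.442). The value to 2 wks passed with scaling to total counts (-1.55, adjusted p = 0.00661) and with the GC trend removed (-1.34, adjusted p = 0.0129), and the whole-span value was then -2.42 and -1.75. The whole-span call was lost without replicate 2 or 4 of E18.5 or replicate 1, 2 or 3 of 7 wks, with log2 fold changes of -0.95 to -1.08, and without replicates 3 and 4 of E18.5 together (adjusted p = 0.0746). Without replicate 4 of 7 wks it was -1.66, and without replicate 1 of 2 wks the log2 fold change to 2 wks was -1.19 and passed (adjusted p = 0.0184).

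*Per3* (chr4:150997018-151044707), which is dispensable for the core loop, rose before 2 wks, and its later change did not pass the test. Its CPM was 8.08, 6.73, 12.6 and 13.6 at E18.5, 29.5, 33.5, 21.1 and 27.6 at 2 wks, and 34.99, 23.0, 28.6 and 38.1 at 7 wks. All postnatal levels lay above all E18.5 levels, and the postnatal ages overlapped. The log2 fold change was 1.44 (SE 0.24, adjusted p = 0.00014) to 2 wks and 0.16 (SE 0.24, adjusted p = 0.647) from 2 to 7 wks. With scaling to total counts the rise to 2 wks was 0.52 and no longer passed (adjusted p = 0.0791), and the whole-span value went from 1.60 to 0.32 (adjusted p = 0.258).

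The cryptochrome genes *Cry1* (chr10:85131700-85185054) and *Cry2* (chr2:92403646-92434085), whose proteins are the main blockers of BMAL1 and CLOCK, passed the test in no comparison under TMM. *Cry1* CPM was 13.5, 15.8, 12.65 and 15.1 at E18.5, 16.2, 17.5, 12.3 and 11.55 at 2 wks, and 18.8, 17.8, 19.1 and 14.3 at 7 wks. *Cry2* CPM was 28.5, 35.7, 31.8 and 33.6 at E18.5, 40.3, 44.3, 24.4 and 29.3 at 2 wks, and 29.3, 24.8, 34.0 and 31.3 at 7 wks. In both genes the ages overlapped. The log2 fold changes to 2 wks were 0.01 (SE 0.16) for *Cry1* and 0.10 (SE 0.18) for *Cry2*, and from 2 to 7 wks they were 0.28 (SE 0.17) and -0.21 (SE 0.18). With scaling to total counts, where most genes move down, both fell to 2 wks (-0.90 and -0.81) and over the whole span (-0.98 and -1.40). *Cry2* then also fell from 2 to 7 wks (-0.59, adjusted p = 0.0441), and *Cry1* did not (-0.08, adjusted p = 0.76). *Cry2*, with 55.8% GC in its exons, was also lower at 2 wks once each library's trend over GC content was removed (-0.82, adjusted p = 0.00199), and *Cry1* was not (-0.10, adjusted p = 0.574). Over the whole span the values with that trend removed were -0.87 (adjusted p = 0.00103) for *Cry2* and 0.06 (adjusted p = 0.736) for *Cry1*.

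*Nr1d1* (chr11:98767932-98775377), the haem-binding repressor of *Bmal1*, changed most of the 10 genes in each comparison. Its CPM was 4.48, 7.996, 5.68 and 6.90 at E18.5, 36.1, 52.8, 119 and 127 at 2 wks, and 199 (replicate 1), 231, 289.6 and 248 at 7 wks. The ages did not overlap, and at 2 wks replicates 3 and 4 lay well above replicates 1 and 2. The level rose 13.4-fold to 2 wks (log2 fold change 3.74, SE 0.37, adjusted p = 2.05e-06) and a further 2.89-fold to 7 wks (1.53, SE 0.34, adjusted p = 0.00519). Over the whole span the rise was 38.6-fold, and with scaling to total counts the log2 fold change was 3.99 in place of 5.27.

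*Nr1d1* shares its locus with *Thra*, the gene of thyroid hormone receptor alpha, which is transcribed from the other strand and overlaps 52.3% of the exon bases of *Nr1d1*. The library kit keeps the strand, but the strand setting of the counting is not given in the sources used here. Whether reads from the overlap were counted, and for which gene, is therefore not known. In order of age, *Thra* had a mean CPM of 70.03 ± 17.8 (SD, n = 4), 89.8 ± 5.69 and 98.2 ± 6.06. Its log2 fold changes were 0.36 (adjusted p = 0.0752) and 0.13 (adjusted p = 0.605) in the intervals, below those of *Nr1d1*. At E18.5 the CPM of *Nr1d1* was below that of *Thra*.

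*Nr1d2* (chr14:18204056-18239106), the close relative of *Nr1d1* with the same DNA target, rose less steeply. Its CPM was 42.0, 20.75, 26.0 and 32.1 at E18.5, 85.6, 88.0, 91.7 and 100.7 at 2 wks, and 216, 162, 115 and 173 at 7 wks. The ages did not overlap, and the 2 wks mice were close to each other. It rose 3.03-fold to 2 wks (log2 fold change 1.60, SE 0.22, adjusted p = 3.25e-05) and 1.82-fold from 2 to 7 wks (0.86, SE 0.22, adjusted p = 0.0104). Under total counts it rose by 0.67 to 2 wks (adjusted p = 0.0113), and the later value did not pass (0.53, adjusted p = 0.0747).

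*Dbp* (chr7:45705100-45710203), the output factor that binds D-boxes, rose mainly before 2 wks. Its CPM was 4.73, 5.49, 5.43 and 4.57 at E18.5, 20.7, 20.4, 26.8 and 49.0 at 2 wks, and 42.3, 28.9, 64.3 and 60.1 at 7 wks. The E18.5 mice were alike and lay below all others, whereas the postnatal ages overlapped, with replicate 4 of 2 wks above 2 of the 7 wks mice. The rise to 2 wks was 5.78-fold (log2 fold change 2.53, SE 0.30, adjusted p = 9.51e-06), and the later log2 fold change of 0.74 (SE 0.29) missed the threshold (adjusted p = 0.0701). That value was 1.11 (adjusted p = 0.00661) without replicate 4 of 2 wks, 0.93 without replicate 2 of 7 wks, where it also passed, and 1.18 (adjusted p = 0.00642) with the GC trend removed. Scaled to total counts, *Dbp* rose by 1.57 to 2 wks and by 1.99 over the whole span, and the later value was 0.42 (adjusted p = 0.242). *Dbp* has the most GC-rich exons of the 10 genes (61.1%), and its rise to 2 wks was 1.03 with the GC trend removed. Of its exon bases 15.5% overlap *Sphk2* on the other strand.

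**Figure D2:**
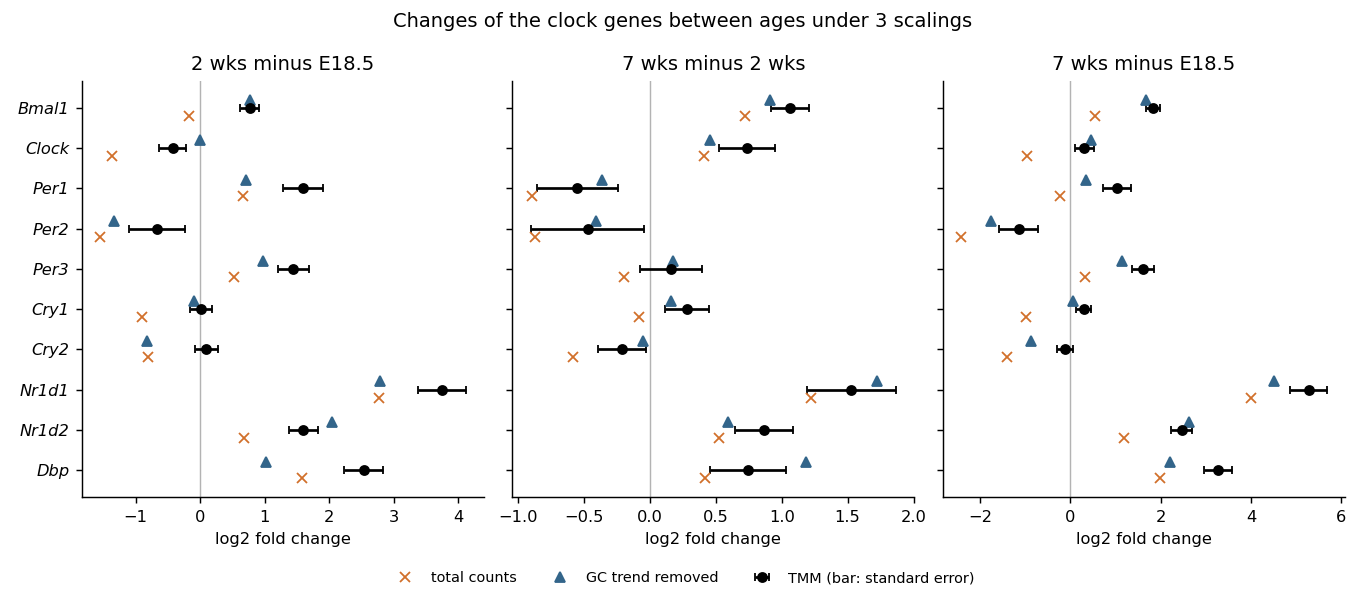
Log2 fold change of the clock genes at 2 wks against E18.5, 7 wks against 2 wks and 7 wks against E18.5 (a panel each), with TMM scaling (dots, bars are SE), scaling to total counts (crosses) and the GC trend removed (triangles). Crosses lie to the left of dots throughout, and *Nr1d1* lies right of 0 in all panels under each of the 3 settings.

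The levels of *Bmal1*, *Per1*, *Per3*, *Nr1d1*, *Nr1d2* and *Dbp* did not overlap between E18.5 and 2 wks and were higher at 2 wks, as was so for 28.9% of all tested genes. Between 2 and 7 wks the 3 genes *Bmal1*, *Nr1d1* and *Nr1d2* did not overlap and were higher, against 17.3% of all tested genes. The corresponding 5 genes over the whole span were *Bmal1*, *Per3*, *Nr1d1*, *Nr1d2* and *Dbp*, against 30.2% of all tested genes. No clock gene was lower without overlap in any comparison, as was so for 32.4%, 16.4% and 33.3% of all tested genes.

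Whether a gene changed by the same amount on the log2 scale before and after 2 wks was asked with a separate contrast, the change to 2 wks minus the change from 2 to 7 wks. The contrast passed for 5 of the 10 genes and for 38.4% of all tested genes (21.6% positive and 16.8% negative). It was positive, with the earlier change the higher, for *Per1* (2.14, SE 0.51, adjusted p = 0.00597), *Nr1d1* (2.21, SE 0.56, adjusted p = 0.0079), *Dbp* (1.79, SE 0.48, adjusted p = 0.0113) and *Per3* (1.28, SE 0.40, adjusted p = 0.0221). For *Clock* it was negative (-1.16, SE 0.37, adjusted p = 0.0257), a call that was lost (-1.06, adjusted p = 0.0683) without replicates 3 and 4 of E18.5. For *Bmal1* it was -0.30 (adjusted p = 0.368), with steps of 0.76 and 1.06, and for *Nr1d2* 0.73 (adjusted p = 0.132). These intervals differ in length and share the 2 wks mice. The count of 5 was 3 without replicate 1 or 2 of 2 wks, when *Clock* and *Per3* no longer passed, and 2 without replicate 4 of 2 wks, when *Dbp* (1.06, adjusted p = 0.0732) was lost as well. Without replicate 1 of E18.5 *Nr1d2* passed too (0.93, adjusted p = 0.0391). With the GC trend removed (33.6% of all tested genes called) all 5 genes lost the call, with *Dbp* at -0.16, and *Nr1d2* was the only clock gene that passed (1.44, adjusted p = 0.000563). With scaling to total counts (43.7% called) *Per3* (0.72, adjusted p = 0.196) and *Dbp* (1.15, adjusted p = 0.0527) lost the call and *Bmal1* gained it (-0.89, adjusted p = 0.0169).

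Levels of different genes were compared per kb of exon (mean CPM per kb). The length was that of all annotated exons of a gene merged, which can exceed the length of the transcripts present. It was 17251 bases for *Clock*, 11573 for *Bmal1* and 10491 for *Per3*, against 3470 for *Dbp* and 3242 for *Nr1d1*. The order of the genes at an age therefore depends on the annotation, and the change of a gene between ages does not. At E18.5 *Per1* (4.49), *Cry2* (3.77), *Nr1d2* (3.34) and *Cry1* (2.87) led, followed by *Per2* (2.36), *Clock* (2.30), *Nr1d1* (1.93) and *Dbp* (1.46), and each of these overlapped its neighbour in the order. *Per3* (0.977) and *Bmal1* (0.878) came last and lay below *Dbp* without overlap. At 2 wks *Nr1d1* (25.9), *Per1* (13.5), *Nr1d2* (10.1) and *Dbp* (8.43) formed the upper part, with no overlap between *Dbp* and *Cry2* (4.03), the next in order. At 7 wks *Nr1d1* stood alone at 74.6, followed after a gap by *Nr1d2* (18.4), *Dbp* (14.1) and *Per1* (9.23). The other genes except *Per2* lay between 2.85 (*Clock*) and 3.52 (*Cry1*), and *Per2* was last at 1.07 without overlap. *Nr1d1* thus went from the seventh place to the first.

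**Figure D3:**
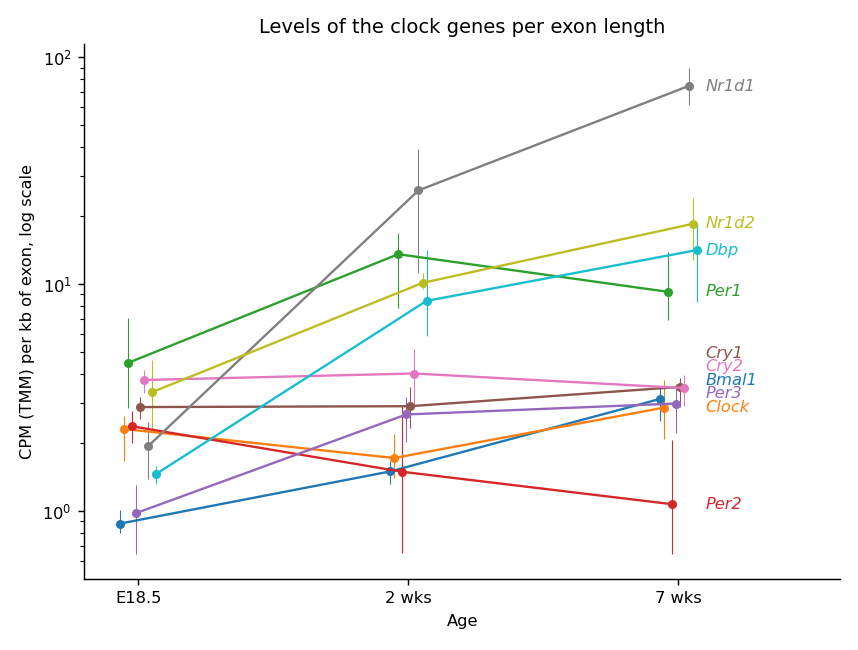
Mean CPM per kb of exon of the 10 clock genes at the 3 ages (log axis), with bars from the lowest to the highest of 4 mice. The genes lie between 0.878 and 4.49 at E18.5 and between 1.07 and 74.6 at 7 wks.

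Ratios of the counts of a pair of genes within a library do not depend on how libraries are scaled. They were compared as log2 ratios with two-sided exact permutation tests. A library's trend over GC content was not removed from them and can differ between the genes of a pair. With that trend removed, the log2 fold changes to 2 wks were 1.03 for *Dbp* and 0.77 for *Bmal1*, against 2.53 and 0.76 with TMM. For *Nr1d1* and *Nr1d2* they were 2.79 and 2.04, against 3.74 and 1.60. With 4 mice against 4 the smallest p these tests can give is 0.0286, and after adjustment over the 18 ratio tests no value passed, the smallest being 0.0514. The *Per1*/*Per2* log2 ratio was 0.72, 1.60, 1.07 and 0.94 at E18.5, 2.75, 2.70, 4.54 and 4.29 at 2 wks, and 3.88, 3.64, 3.30 and 2.98 at 7 wks. The counts of *Per1* were thus 2.12 times those of *Per2* before birth (geometric mean) and 11.9 and 10.9 times those of *Per2* after it, without overlap. The difference from E18.5 to 2 wks was 2.49 (SE 0.52, exact p = 0.0286, adjusted p = 0.0514), and from 2 to 7 wks it was -0.12 (SE 0.53, exact p = 0.8).

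The *Nr1d1*/*Bmal1* log2 ratio was -1.05, -0.27, -0.82 and -0.76 at E18.5, 1.24, 1.58, 2.63 and 2.92 at 2 wks, and 2.29, 2.51, 3.09 and 3.10 at 7 wks. *Nr1d1* had 0.605 times the counts of *Bmal1* before birth and 6.71 times at 7 wks. All postnatal values lay above all E18.5 values, with a difference to 2 wks of 2.82 (SE 0.44, exact p = 0.0286, adjusted p = 0.0514). The mean *Nr1d1*/*Nr1d2* log2 ratio went from -2.25 ± 0.76 (SD, n = 4) to -0.32 ± 0.81 and 0.56 ± 0.59. The mean *Bmal1*/*Clock* log2 ratio went from -1.95 ± 0.30 to -0.75 ± 0.23 and -0.43 ± 0.26, and that of *Dbp*/*Bmal1* from -1.01 ± 0.24 to 0.67 ± 0.60 and 0.39 ± 0.73. In these 3 ratios too E18.5 did not overlap the postnatal ages (exact p = 0.0286, adjusted p = 0.0514, for each of the 6 comparisons), and the postnatal ages overlapped.

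The *Cry1*/*Cry2* log2 ratio was -1.18 ± 0.11 (SD, n = 4) at E18.5 and -1.25 ± 0.17 at 2 wks, a difference of -0.06 (SE 0.10, exact p = 0.514). At 7 wks it was -0.77 ± 0.28, higher by 0.48 (SE 0.16, exact p = 0.0571, adjusted p = 0.0857) than at 2 wks, with overlap. Of the 18 comparisons 10 had no overlap between ages, and these were the comparisons of E18.5 with either later age in all pairs except *Cry1*/*Cry2*. The share among ratios of other gene pairs was not computed. For single genes lack of overlap was common: 28.9% of all tested genes were higher and 32.4% lower without it at 2 wks against E18.5. Over the whole span these shares were 30.2% and 33.3%.

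**Figure D4:**
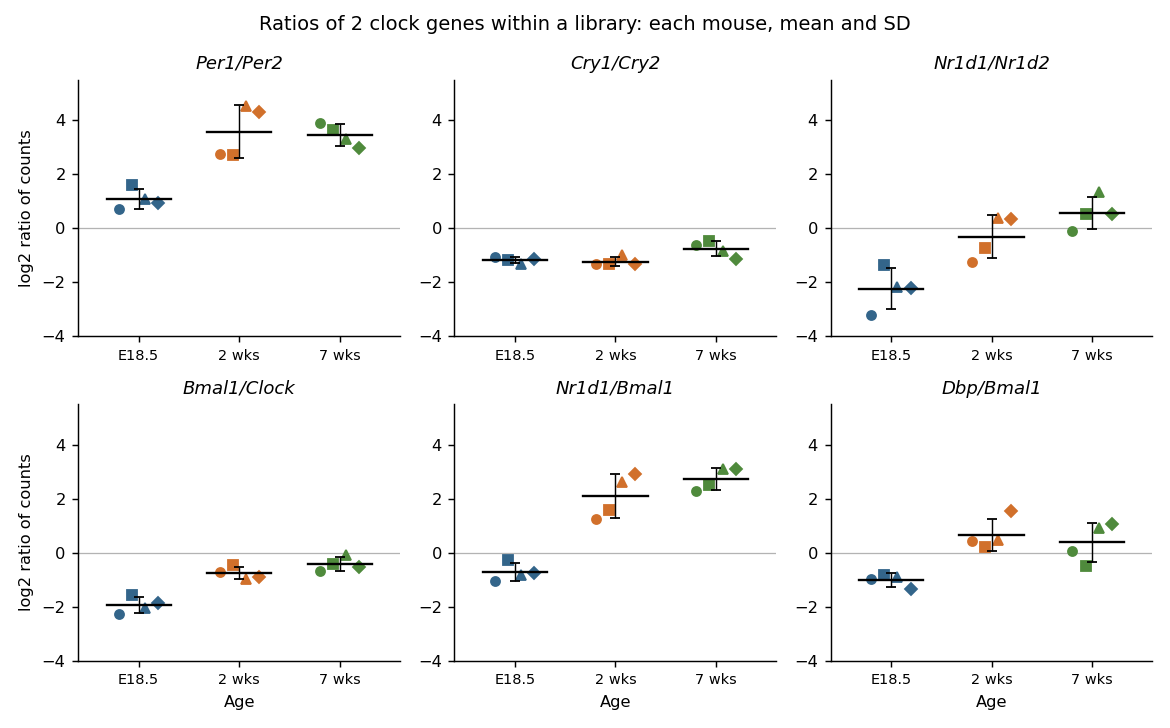
Log2 ratio of the counts of 2 clock genes within each library, by age, in 6 panels; each marker is 1 mouse and the line and bars give the mean and SD of 4 mice. In 5 of the panels all E18.5 mice lie below all postnatal mice, and in the *Cry1*/*Cry2* panel the ages overlap.

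Mice of the same age differed in some clock genes more than in others. The SD of log2 CPM within an age was 0.703 for *Per2*, 0.571 for *Nr1d1*, 0.505 for *Per1* and 0.465 for *Dbp*, at percentiles 96.9, 93.1, 89.2 and 85.7 among the 11888 genes whose mean log2 CPM was 1 or more. It was 0.180 for *Bmal1* and 0.220 for *Cry1*, at percentiles 18.1 and 30.8, with *Clock*, *Per3*, *Cry2* and *Nr1d2* between these groups. The highest of the 2 wks mice had 4.44 times the lowest level of *Per2*, 3.53 times that of *Nr1d1* and 2.40 times that of *Dbp*, but 1.26 times that of *Bmal1* and 1.18 times that of *Nr1d2*. At E18.5 these ratios were 1.37 for *Per2* and 1.20 for *Dbp*.

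Among the 2 wks mice the same libraries stood apart in several clock genes, a split seen in the data and given with no test. Replicates 1 and 2 had the lower *Nr1d1* and the higher *Per2*, *Cry1* and *Cry2*, and replicates 3 and 4 the reverse. The red blood cell markers followed the same split, with summed CPM of 477 and 756 in replicates 1 and 2 and 145.5 and 148 in replicates 3 and 4. So did the share of counts on mitochondrially encoded genes, at 7.81 and 8.13% against 10.09 and 10.28%, and the summed CPM of skeletal muscle fibre markers, at 88020 and 88000 against 108000 and 120600. Their part in the split was not tested.

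Genes whose levels followed *Bmal1* or *Dbp* from mouse to mouse were found by Pearson's r of log2 CPM after the mean of each age was subtracted, over 12 libraries and 11887 genes. These values are a description, since all genes of a library share its depth and scaling. The genes most like *Bmal1* were *Aggf1* (r = 0.901), *Palmd* (0.857) and *Hdhd2* (0.845), and those most opposed were *Otud5* (-0.902), *Hmgn2* (-0.889) and *Hopx* (-0.858). Of the other clock genes *Clock* was nearest to *Bmal1* at 0.596 and *Per2* most opposed at -0.72. The genes most like *Dbp* were *Pik3ip1* (0.919), *Actr3b* (0.901) and *Kcnn1* (0.855), and among the clock genes *Nr1d1* came nearest at 0.64 and *Cry1* was most opposed at -0.58.

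A list of 18 further genes of the clock, all of them tested, held 8 that rose and 4 that fell from E18.5 to 2 wks, and 5 that rose and none that fell from 2 to 7 wks. Over the whole span 10 rose and 3 fell. All tested genes gave the shares named above, 31.5% higher and 34.2% lower to 2 wks. These were 13.5% and 13.9% from 2 to 7 wks, and 34.3% and 37.1% over the whole span. The list's median on the log2 scale was 0.34, 0.21 and 0.48 in the 3 comparisons. Under total counts the list gave 2 higher and 11 lower to 2 wks, and none higher and 2 lower from 2 to 7 wks. Over the whole span it gave 3 higher and 11 lower, so the split of its genes depends on the scaling. The shares of all tested genes were then 13.2% higher and 61.9% lower, 4.92% and 28.0%, and 11.9% and 69.0%, in the order of the comparisons.

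The ROR receptors, which activate *Bmal1* at the sites that NR1D1 represses, moved in different directions. With TMM *Rora* rose by 0.88 (adjusted p = 0.00151) and then by 0.72 (adjusted p = 0.0168) on the log2 scale. *Rorb*, a gene of low level here, fell by 2.06 to 2 wks (adjusted p = 0.000798). *Fbxl21*, of low level too, fell by 1.91 to 2 wks (adjusted p = 0.000331), and *Nono*, which encodes a PER-binding RNA-binding protein, by 1.14 (adjusted p = 2.89e-06), and both were also lower over the whole span. Of the PAR bZIP factors related to *Dbp*, *Tef* rose in both intervals (1.33 and 0.66), whereas *Hlf* fell by 0.66 to 2 wks (adjusted p = 0.0383) and rose by 0.97 from 2 to 7 wks (adjusted p = 0.015). *Nfil3*, which competes with these factors at D-boxes, rose by 1.12 to 2 wks (adjusted p = 0.00148) and stood at 0.19 afterwards (adjusted p = 0.609).

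The list also held repressors outside the *Per* and *Cry* families and ubiquitin ligase subunits. As for the genes above, values and calls are with TMM. With scaling to total counts no rise from 2 to 7 wks named for this list kept its call, and at most 2 of the rises to 2 wks did. *Bhlhe41*, an E-box repressor, rose by 3.00 (adjusted p = 2.32e-07) and 0.80 (adjusted p = 0.0133), and its relative *Bhlhe40* by 0.82 to 2 wks (adjusted p = 0.00582). *Ciart*, a repressor of BMAL1 and CLOCK, rose by 1.43 to 2 wks (adjusted p = 0.000718), and its later value of 0.70 missed the threshold (adjusted p = 0.0871). *Btrc*, whose product marks PER proteins for degradation, rose by 0.89 to 2 wks (adjusted p = 4.86e-05), and *Fbxw11*, its close relative, by 0.63 from 2 to 7 wks (adjusted p = 0.00302). *Npas2*, *Bmal2*, *Csnk1d* and *Timeless* passed in none of the 3 comparisons of ages, with log2 fold changes of 0.32, 0.04, 0.20 and -0.18 to 2 wks.

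**Figure D5:**
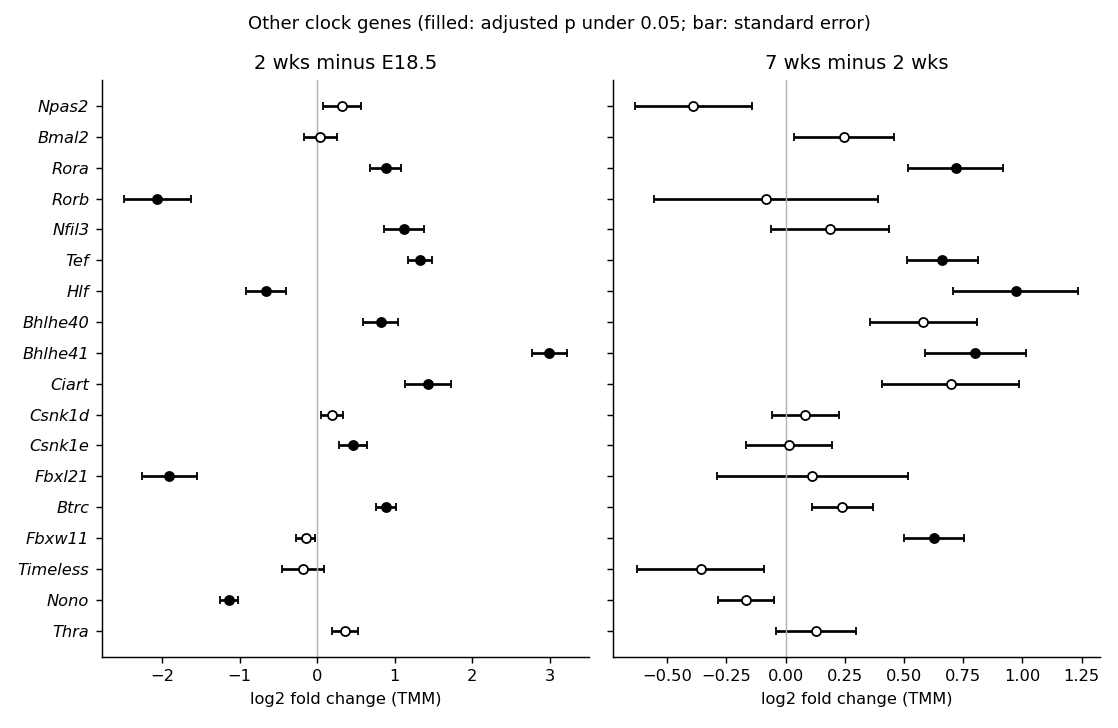
Log2 fold change (TMM) of the 18 further clock genes from E18.5 to 2 wks and from 2 to 7 wks, with filled markers where edgeR's adjusted p was under 0.05. *Bhlhe41* and *Ciart* have the highest values to 2 wks (3.00 and 1.43) and *Rorb* the lowest (-2.06).

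Of 10 genes known to follow the clock in muscle or other tissues, 6 rose and 1 fell to 2 wks. From 2 to 7 wks 1 rose and 1 fell, and the medians were 1.31 and 0.12. Of all tested genes 31.5% rose and 34.2% fell to 2 wks, and 13.5% and 13.9% from 2 to 7 wks. *Tcap*, a protein of the sarcomere whose gene is a target of CLOCK and BMAL1, rose by 5.91 to 2 wks, and *Ucp3*, a mitochondrial carrier, by 5.42. *Usp2*, a deubiquitinase, rose by 1.39 (adjusted p = 5.2e-06), whereas *Wee1*, a kinase that holds back mitosis, fell by 1.64 and then by 0.79 (adjusted p = 1.02e-05 and 0.01). *Nampt*, the enzyme that salvages nicotinamide for NAD, rose by 1.31 from 2 to 7 wks (adjusted p = 0.0415). Scaled to total counts, 5 of these genes were higher and 2 lower at 2 wks, and none higher and 2 lower from 2 to 7 wks. The shares of all tested genes were then 13.2% higher and 61.9% lower, and 4.92% and 28.0%. *Tcap* and *Ucp3* are also genes of the muscle fibre itself, whose markers rose over the same interval.

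*Per1* and other clock genes also respond to glucocorticoids and to acute stimuli, so these lists stand beside them. For both lists the shares of all tested genes were 31.5% higher and 34.2% lower to 2 wks, and 13.5% and 13.9% from 2 to 7 wks. With scaling to total counts the shares were 13.2% and 61.9%, and 4.92% and 28.0%. Of 9 glucocorticoid targets 6 rose and none fell to 2 wks, and 5 rose and 1 fell from 2 to 7 wks, among them *Tsc22d3* (1.72, then 0.75), *Klf9* (2.22, then 0.67) and *Sgk1* (3.29, then 0.44). *Fkbp5* stood at -0.49 (adjusted p = 0.283) in the earlier interval and rose by 1.69 in the later, while *Mt2*, which also answers to metals, rose by 2.96 and fell by 2.14. Under total counts the split was 5 higher and 2 lower to 2 wks and 1 higher and 2 lower from 2 to 7 wks. Their summed CPM at E18.5 ranged from 235 to 299, that of 2 wks from 625 to 826 and that of 7 wks from 940.0 to 1445. Of 8 immediate-early genes, which respond within minutes to stimuli, 4 rose and none fell to 2 wks, with *Nr4a1* at 3.50, *Junb* at 3.70, *Ier2* at 2.27 and *Jun* at 0.98, and from 2 to 7 wks none rose and 2 fell. Scaled to total counts, 3 were higher and 3 lower to 2 wks, and none higher and 3 lower afterwards. The rest of this list, *Fos* (-0.45), *Fosb* (-0.90), *Egr1* (-0.32) and *Atf3* (0.28), did not pass to 2 wks with TMM. The summed CPM of the immediate-early genes ranged from 51.1 to 75.1, 163 to 293 and 204 to 262. Most of the sum after birth was *Nr4a1*, which ranged from 7.54 to 17.6, 97.7 to 195 and 95.8 to 203. The part of either list in the clock genes' differences was not tested.

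The tissue label was checked with markers. All 6 markers of skeletal muscle fibres rose to 2 wks, and their summed CPM was 8879 to 16730 before birth, 88000 to 120600 in the 2 wks mice and 100900 to 145100 in the 7 wks mice. Markers of other cells were present and also moved with age, and their part in the clock genes' differences was not tested. Beside the marker counts stand the shares of all tested genes, 31.5% higher and 34.2% lower to 2 wks, and 13.5% and 13.9% from 2 to 7 wks. Marker counts here and in the next paragraph are with TMM and move with the scaling. Under total counts 5 fibre markers were higher to 2 wks. Lower in the 2 intervals were then 5 and 4 fibroblast, 4 and 6 red blood cell, and 6 and 0 adipocyte markers. The shares of all tested genes were then 13.2% higher and 61.9% lower to 2 wks, and 4.92% and 28.0% afterwards. With TMM 3 of 6 fibroblast markers fell in each interval, with sums of 5960 to 12270, 4465 to 6127 and 970.4 to 4079. Of 6 red blood cell markers 1 fell to 2 wks and 4 from 2 to 7 wks, with sums of 241 to 1024, 145.5 to 756 and 91.9 to 129.7. Of 6 adipocyte markers 5 fell to 2 wks, and at E18.5 their sum was 235 and 182 in replicates 1 and 2 but 1944 and 2722 in replicates 3 and 4, against 313.5 to 492 in the later libraries. Most of this sum was *Fabp4* in every library, at 220 and 163 in E18.5 replicates 1 and 2 and 305 to 480 later. In the same replicates *Adipoq* was 6.38 and 7.75, against 0.69 to 3.25 later, and *Cfd* was 0.46 and 1.23, against 0.75 to 3.88. The sum therefore does not rank these replicates against the later ages.

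Without replicates 3 and 4 of E18.5 the count of clock genes called was 6 to 2 wks and 4 from 2 to 7 wks, as with them, and 5 over the whole span. Nerve markers summed to 439.6 in replicate 1 of 2 wks and to 57.9 to 157 in the other libraries. Of these 6 markers, 2 rose and 3 fell to 2 wks, and 3 fell from 2 to 7 wks. Cartilage and bone markers (5 of 6 tested, of which 1 rose and 4 fell to 2 wks and 4 fell afterwards) summed to 23.5 to 142, 3.15 to 22.1 and 0.827 to 2.90 in order of age. Epidermal markers (5 of 6 tested, 1 up and 3 down to 2 wks, 1 up afterwards) summed to 1.81 to 49.5, 3.51 to 4.78 and 2.19 to 8.43. Immune cell markers (all 6 tested, 1 up and 2 down to 2 wks, 2 down afterwards) summed to 86.4 to 129.8, 64.3 to 85.2 and 33.9 to 82.8.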

How the data were processed

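RNA of tibialis anterior muscles from 12 mice was sequenced as polyadenylated, strand-marked paired-end libraries. The authors deposited raw counts of reads, as a table with 1 Ensembl gene per row. The authors trimmed reads with cutadapt 1.10, mapped them with STAR 2.5.3a and, by the submitters' processing notes, counted them with HTSeq 0.6.1p1. These notes name mm10, whereas the study's methods name GRCm39. The annotation and strand setting of the counting are not given in the sources used here. Gene and promoter coordinates in the text are those of RefSeq on GRCm38.p6, and exon lengths, GC content and overlaps come from GENCODE vM39, so neither was read from the counting itself. Symbols were taken from GENCODE vM39, which holds 51477 of the 55450 identifiers, and the rest took 0.0394% of counts. All per-sample columns were used.

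Counts were scaled with TMM and tested with edgeR 4.0.16 (R 4.3.3, limma 3.58.1) in a joint fit of the 12 libraries in which age was the sole term. Of all genes 19276 passed filterByExpr and 36174 did not. Benjamini-Hochberg adjustment ran over all tested genes. Ratios used counts with 0.5 added and exact permutation tests (scipy 1.17.1, Python 3.11.15), tables pandas 2.3.3 and figures matplotlib 3.10.9. Nothing states that replicates differ by litter, so p-values measure the spread between these mice. All 18 pairs of replicates differed by more than counting error (chi-square over its degrees of freedom, 31.2 to 607), and no library was a copy.

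The clock genes and all lists were chosen with earlier results of these data known, and lists are described by counts and medians only. Of the list of further clock genes, 2 are not reported here. The rule for naming took all 10 clock genes, 2 to 6 genes of each other list, and the 3 genes most like *Bmal1* and *Dbp* and most opposed to *Bmal1*. In departure from it, chosen after values were seen, more of the further clock genes and all immediate-early genes are named. Marker lists are given by counts and sums, with single genes for adipocytes only. Alternatives were scaling to total counts, upper-quartile scaling, removal of each library's GC trend (lowess span 0.3), DESeq2 1.42.0, the replicate number as a block, fits of only the libraries of 2 ages, glmTreat beyond a log2 fold change of 1, leaving out the 20 most abundant and 37 mitochondrially encoded genes, a minimum of 10 counts per library or none, no pseudocount, and each library left out. Leaving out replicates 3 and 4 of E18.5 together was added after seeing the data. The procedure was tested on simulated counts with known changes. At the common dispersion of these data most of those changes were not recovered. The simulated counts held far fewer changed genes than were called here and gave all genes the same dispersion. They therefore do not measure how often a change of a clock gene would be missed. A value that did not pass is still not evidence of no change.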

Additional observations from a re-analysis of the deposited data

Results flagged for a closer look

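The *Cry1*/*Cry2* log2 ratio of replicate 3 of 2 wks, at -0.99, stood apart from the other mice of that age, which lay between -1.34 and -1.31, and the gap was 0.923 of the range. It is the only such value among 48 sets of 4 mice examined (10 genes and 6 ratios at 3 ages), where chance would give about 2.4. Without it the difference from E18.5 to 2 wks was -0.15 in place of -0.06.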

How the results depend on the processing

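The count of clock genes called, with both directions pooled, stayed within a factor of 1.5 in all 3 comparisons of ages under every alternative, with 1 exception. No gene (0) passed edgeR's test beyond a log2 fold change of 1 from 2 to 7 wks, where 1 did at an unadjusted p under 0.05. DESeq2, which tests against no change, called 4 in that comparison. The directions were less stable. With scaling to total counts, 6 higher and 0 lower to 2 wks became 3 and 4, and 6 higher and 1 lower over the whole span became 4 and 4. With single libraries left out, the counts were 6 to 7, 3 to 5 and 6 to 7. The contrast of the intervals was the least stable, with 5 genes called, 1 beyond a log2 fold change of 1, 1 with the GC trend removed, and 2 to 6 with single libraries left out. Scaling to total counts reversed *Bmal1* (-0.17), *Cry1* (-0.90) and *Cry2* (-0.81) to 2 wks, and *Clock* (-0.96), *Per1* (-0.24) and *Cry1* (-0.98) over the whole span, and these follow the shift of all genes that this scaling makes. Removing the GC trend reversed *Cry2* to 2 wks (-0.82) and the contrast of *Dbp* (-0.16), and the cause was not tested. Under it the contrast called *Nr1d2*, none of the 5 genes called with TMM alone.

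The labels give no pairing of mice by replicate number. Correlations of same-numbered deviations ranged from -0.283 to 0.514, and 6 of 12 libraries correlated best with their own number. Whether a number marks a shared batch was not tested. With the replicate number as a block the counts were 6, 5 and 7, and 5 for the contrast, with *Dbp* called from 2 to 7 wks (0.77, adjusted p = 0.0387). No ratio passed the exact permutation test after adjustment (smallest adjusted p = 0.0514), so the alternatives had no call to lose. With a mouse left out the smallest exact p is 0.0571, so these alternatives were compared by value only and say nothing about the stability of a call. Each clock gene had 218 counts or more in each library.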
